A study of Homo sapiens with 6 samples.

Results

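The genes described here handle heme and iron: *HMOX1*, *HMOX2*, *BLVRA* and *BLVRB* of heme breakdown, the ferritin chains *FTL* and *FTH1*, the iron carriers *TFRC*, *SLC11A2* and *SLC40A1*, and the repressor *BACH1*. They are 10 of the 63677 genes in the count table, and all 10 symbols matched 1 identifier each. The members were chosen by their pathway with this comparison already known, so their differences between the conditions are given as a description with no test.

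The study asked what changes in the transcriptome when *SNHG15*, a long noncoding RNA that hosts a small nucleolar RNA, is depleted by RNA interference. Cells labelled LoVo, a line derived from a colorectal cancer, received either a combination of both *SNHG15* siRNAs or a negative control (scramble) siRNA, at 25 nM for 48 h with Lipofectamine 2000. Each condition had 3 libraries, described as biological replicates, of polyadenylated RNA. No genotype or other treatment separated the groups.

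Heme is cut open by heme oxygenase, which releases iron, carbon monoxide and biliverdin. Biliverdin reductases turn biliverdin into bilirubin, and ferritin cages store the iron. *HMOX1* encodes the inducible heme oxygenase and *HMOX2* the constitutive one. BACH1 binds antioxidant response elements with small MAF proteins and represses *HMOX1*. Heme releases BACH1 from DNA, and NRF2 then occupies the same elements. Iron regulatory proteins bind hairpins named iron responsive elements in the mRNAs of ferritin, ferroportin and the transferrin receptor, where they block translation or protect the mRNA from decay.

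Counts summed to between 3446922 (scramble replicate 3) and 10256710 (scramble replicate 2) per library. Levels are given as CPM, the count of a gene scaled to the normalized size of its library. *SNHG15* stood at 276 ± 14.3 CPM (SD, n = 3) in scramble cells and at 82.5 ± 5.0 CPM in *SNHG15* siRNA cells, with no overlap. Of 12507 genes with enough counts to test, 671 (5.36%) passed an adjusted p of 0.05 in edgeR's quasi-likelihood test, 392 higher (3.13%) and 279 lower (2.23%) after *SNHG15* siRNA. The split depended on the method: it was 515 higher and 230 lower with upper-quartile factors, 389 and 387 with DESeq2, and 685 and 627 with no filter on low counts. The groups did not overlap in 28.8% of the tested genes, and the siRNA libraries were all above in 14.7%.

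The labelled cell type was checked with 11 markers of colorectal epithelium. *KRT8*, *KRT18*, *CDH1* and *CDX2* had at least 10 counts in every library, and the marker sum was 102 to 110 CPM in scramble and 106 to 117 CPM in *SNHG15* siRNA libraries. *KRT19*, *KRT20*, *VIL1* and *CEACAM6* were at 0 in all 6 libraries, *EPCAM* and *CEACAM5* had at most 1 count, and *LGALS4* had at most 4. Most of the defining markers were thus listed at or near 0, which goes against the label as far as these counts can be read. A 0 in this table need not mean that the mRNA was absent, since *NCOA4*, a gene used by most cells, is also at 0. The name LoVo is used only as the label gives it. Markers of other cell types were also near 0. The summed level of 4 fibroblast markers was 0.234 to 1.25 CPM over all libraries, and that of 5 leukocyte and macrophage markers at most 0.298 CPM. The 2 matched endothelial markers summed to at most 0.234 CPM. Of the hemoglobin genes of erythroid cells, *HBB* was at 0, *HBA2* had 1 to 5 counts and *HBA1* had 1 to 4 counts in 5 libraries and 11 in *SNHG15* siRNA replicate 1. In such bulk RNA, fewer cells of a type and less RNA per cell cannot be told apart.

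The sequence upstream of *HMOX1* is shown because the gene is the classical target of BACH1 and NRF2. The 9-base motif GCTGAGTCA, a core form of their shared element, was searched on both strands from 10000 bases upstream to 1000 bases downstream of each annotated gene start (GRCh37). *HMOX1* (chromosome 22, 35776354 to 35790207, plus strand) held 4 copies, at 8342, 8284, 8255 and 3205 bases upstream of its start, all on the strand of the gene. Of 20162 protein-coding genes, 1 held as many, which was *HMOX1* itself, and 13.8% held any. The first stretch lies at chr22:35767992-35768127 and the second at chr22:35773129-35773177, both printed 5′ to 3′ on the plus strand of GRCh37 with the motif in capitals.
HMOX1 upstream stretch 1: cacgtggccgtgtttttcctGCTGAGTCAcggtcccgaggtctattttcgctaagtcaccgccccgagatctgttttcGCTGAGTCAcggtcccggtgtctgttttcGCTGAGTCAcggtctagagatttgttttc
HMOX1 upstream stretch 2: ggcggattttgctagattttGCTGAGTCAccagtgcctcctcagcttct

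*BLVRA*, *FTL*, *FTH1* and *BACH1* each held 1 copy, and *HMOX2*, *BLVRB*, *TFRC*, *SLC40A1* and *SLC11A2* held none in this window. A match describes letters only and is not evidence of binding, and binding was not measured in these libraries.

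**Figure D1:**
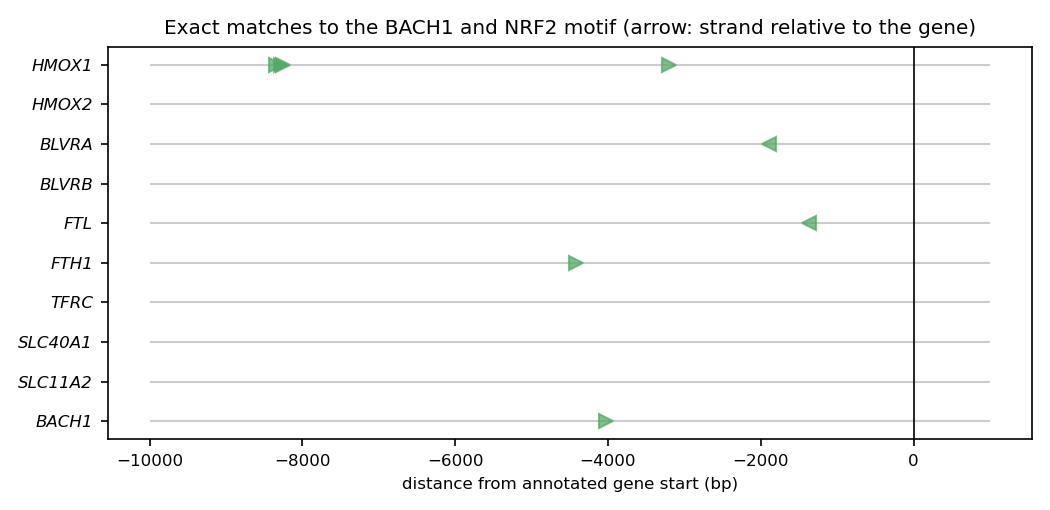
Exact matches to the motif GCTGAGTCA around each member's gene start. The x axis is the distance from the annotated start in base pairs, each grey line is the window searched, and the arrows point along the strand of the match relative to the gene. *HMOX1* has 4 matches, 3 of them close together, and no other member has more than 1.

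The iron responsive elements are shown because iron can regulate members that carry them after transcription. This is a layer that mRNA levels reflect for *TFRC* but mostly not for ferritin. A search of the annotated UTRs for the hairpin pattern found 1 element in the 5′ UTR of *FTH1* (chr11:61735046-61735074, minus strand), 1 in that of *FTL* (chr19:49468592-49468620, plus strand) and 1 in that of *SLC40A1* (chr2:190445387-190445415, minus strand). The 3′ UTR of *TFRC* held 4, and 1 of them is printed (chr3:195777334-195777362, minus strand). In each, the capitals mark the bulged C of the stem and the 6-base loop.
FTH1 element: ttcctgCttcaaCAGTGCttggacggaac
FTL element: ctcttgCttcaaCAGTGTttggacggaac
SLC40A1 element: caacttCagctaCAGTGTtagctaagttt
TFRC element: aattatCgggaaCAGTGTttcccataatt

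All printed elements share the first 5 bases of the loop, CAGTG, because the search pattern required them. No element was matched in *SLC11A2* with this pattern. The pattern also required all 5 base pairs of the upper stem. Elements that depart from it would be missed, so the counts given hold for this pattern only. A member without a match, such as *SLC11A2*, may still hold an element.

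Before the conditions are compared, the levels of the members within scramble cells are given per kilobase of representative transcript, as CPM divided by the transcript length in kilobases (RPKM). *FTL* was far the most abundant at 9526 ± 899 RPKM (SD, n = 3). It alone took between 0.725% and 0.842% of all counts in a library. *BLVRB* followed at 301.5 ± 15.7 RPKM, then *HMOX1* at 191 ± 19.6 RPKM and *BLVRA* at 126 ± 12.4 RPKM. The lower levels were 40.1 ± 5.40 RPKM for *HMOX2*, 18.2 ± 2.22 RPKM for *TFRC*, 4.49 ± 1.10 RPKM for *SLC11A2* and 1.54 ± 0.406 RPKM for *BACH1*. *FTH1* was listed at 0.292 ± 0.210 RPKM and *SLC40A1* at 0. No 2 neighbours in this order had overlapping ranges among the scramble libraries. In *SNHG15* siRNA cells *HMOX1* (435 ± 63.6 RPKM, lowest library 391) stood above *BLVRB* (356 ± 22.0 RPKM, highest library 376), so these genes changed places in the order.

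Of the 10 members, 8 had enough counts for the fit. The siRNA libraries were all above the scramble libraries for *HMOX1*, *HMOX2* and *BLVRB*, they were all below for 0 members, and the groups overlapped for the other 5, beside 14.7% of all tested genes with the siRNA libraries all above. *HMOX1* was the 1 member past the threshold of the fit over all genes, where 5.36% of genes passed. Nothing is read from this count, since the members were chosen with it known.

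**Figure D2:**
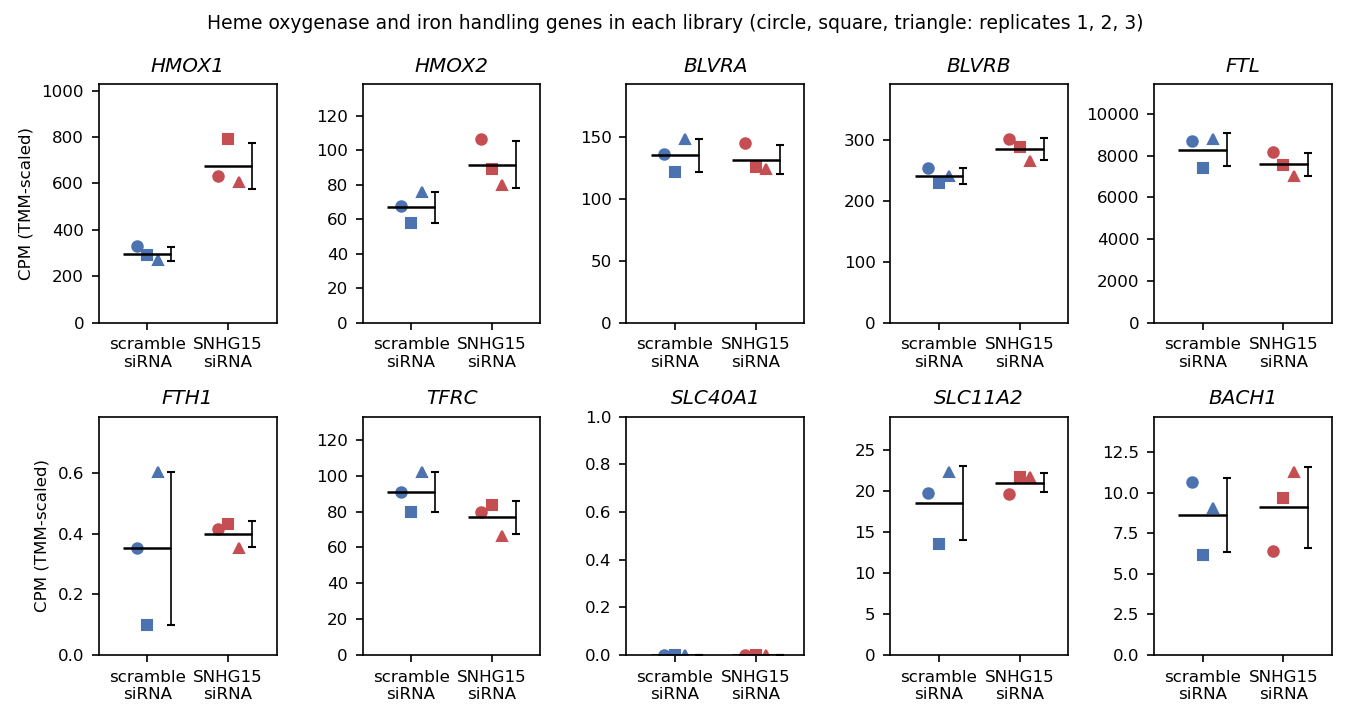
Level of each member in each library, in CPM scaled by library normalization factors, with a linear axis from 0 that differs between panels. Points are single libraries, horizontal bars are group means and whiskers are the SD (n = 3). *HMOX1* separates the groups most widely, and *SLC40A1* is at 0 in all 6 libraries.

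*HMOX1*, the inducible heme oxygenase, stood at 330, 292 and 270 CPM in scramble replicates 1, 2 and 3. In *SNHG15* siRNA replicates 1, 2 and 3 it stood at 631, 789 and 607 CPM. The lowest siRNA library lay well above the highest scramble library, and the siRNA libraries spread more widely. The fitted level was 2.27-fold higher after *SNHG15* siRNA (95% interval 1.85 to 2.80), a log2 difference of 1.18 (SE 0.14). The difference stayed between 1.06 and 1.26 when each library in turn was left out.

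*HMOX2*, the constitutive heme oxygenase, stood at 67.9, 57.6 and 75.6 CPM in scramble cells. It stood at 106, 89.0 and 79.8 CPM in *SNHG15* siRNA cells, so the groups were separate by a narrow margin, set by the highest scramble and the lowest siRNA library. The log2 difference was 0.46 (SE 0.15, 95% interval 0.14 to 0.78), and it did not pass the threshold over all genes. Within each library there were 3.85 to 5.45 *HMOX1* RPKM per *HMOX2* RPKM in scramble cells. In *SNHG15* siRNA cells this ratio was 6.39 to 9.54, above every scramble library.

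The biliverdin reductases did not share a pattern. *BLVRB* stood at 254, 229 and 241 CPM in scramble and at 301, 288 and 266 CPM in *SNHG15* siRNA cells. All siRNA libraries were higher, and the log2 difference was 0.24 (SE 0.12) with a 95% interval of -0.01 to 0.49. *BLVRA*, the form that makes the adult bilirubin isomer, stood at 136, 121 and 148 CPM in scramble and at 145, 126 and 124 CPM in *SNHG15* siRNA cells. These groups overlapped, and the log2 difference of -0.03 had a 95% interval of -0.31 to 0.24. It ran from -0.11 without *SNHG15* siRNA replicate 1 to 0.028 without scramble replicate 3, so it has no steady sign. The ratio of *BLVRB* to *BLVRA* RPKM within a library was 2.19 to 2.53 in scramble cells and 2.78 to 3.07 in *SNHG15* siRNA cells.

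*FTL*, the ferritin light chain, stood at 8720, 7394 and 8778 CPM in scramble and at 8173, 7548 and 7043 CPM in *SNHG15* siRNA cells. The groups overlapped. The log2 difference was -0.13 (SE 0.12), and its 95% interval of -0.38 to 0.12 leaves out a rise of the size seen for *HMOX1*. It was -0.20 without scramble replicate 2 and -0.07 without *SNHG15* siRNA replicate 3. *FTL* has 16 annotated pseudogenes with an identifier, copies of its mRNA elsewhere in the genome, and 8 of them had counts. Their summed counts were 458 to 1723 per library, or 1.43% to 2.66% of the *FTL* count. Most came from *FTLP3*, with 358 to 1332 counts, which stood at 114 ± 39.3 CPM in scramble and 127 ± 24.1 CPM in *SNHG15* siRNA cells.

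*FTH1*, the ferritin heavy chain that oxidizes iron for storage, had 3, 1 and 2 counts in the scramble libraries and 3 counts in each *SNHG15* siRNA library. This was too few to test, and it was lower per kilobase than *BACH1*, a transcription factor mRNA. Much of the gene shares sequence or position with other places in the genome. Of its 1129 windows of 75 bases, the read length, 380 (33.7%) occur elsewhere in GRCh37. Of its 1203 transcript bases, 880 (73.2%) lie within exons of *BEST1*, a chloride channel gene on the opposite strand, so that 78.0% of the windows touch it. A share of 19.7% is free of both overlaps.

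Few counts were listed for the other genes looked at, *BEST1* and the annotated *FTH1* pseudogenes, which does not show where reads went. *BEST1* had 8, 14 and 0 counts in scramble and 1, 5 and 10 counts in *SNHG15* siRNA libraries. The 25 annotated *FTH1* pseudogenes summed to between 5 and 13 counts per library, of which *FTH1P2*, the highest by its sum over the libraries, had 1 to 2 and *FTH1P10*, the next, 0 to 3. *FTH1*, *BEST1* and these pseudogenes together had between 7 and 28 counts per library. *FTH1* mRNA is abundant in most cells, so a near-absence of counts cannot be read as a near-absence of the mRNA, and whether reads were lost in alignment or counting was not tested.

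**Figure D3:**
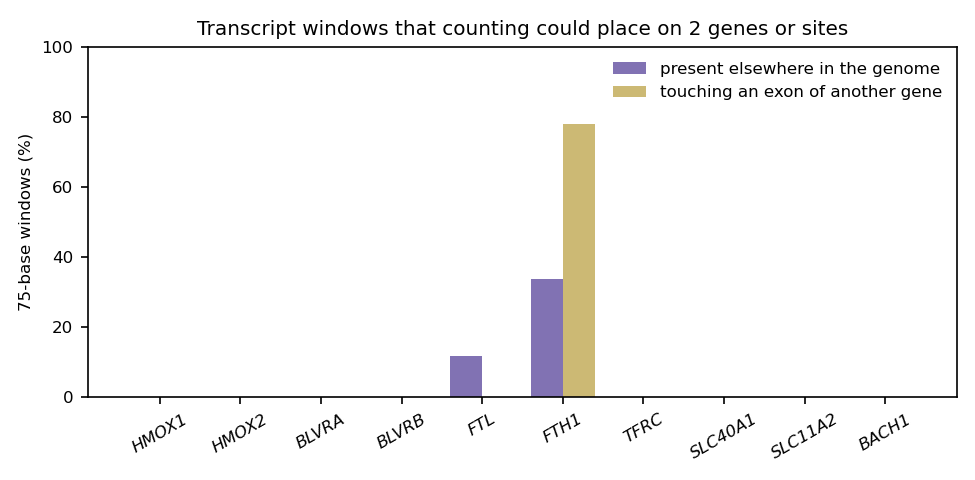
Share of each member's 75-base transcript windows, in percent, that occur elsewhere in the genome or that touch an exon of another annotated gene. *FTH1* has 33.7% and 78.0%, *FTL* has 11.7% of the first kind, and the other members have 0.

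*TFRC*, the transferrin receptor that brings iron into cells, stood at 90.8, 80.0 and 102 CPM in scramble and at 80.0, 83.9 and 66.5 CPM in *SNHG15* siRNA cells. The groups overlapped by a small margin, and the log2 difference was -0.24 (SE 0.14, 95% interval -0.54 to 0.06). It was -0.14 without *SNHG15* siRNA replicate 3 and -0.16 without scramble replicate 3. *SLC11A2*, the divalent metal transporter DMT1, stood at 19.8, 13.5 and 22.4 CPM in scramble and at 19.7, 21.7 and 21.7 CPM in *SNHG15* siRNA cells. Scramble replicate 2 was the low library, and the groups overlapped. The log2 difference of *SLC11A2* was 0.22 (SE 0.19, 95% interval -0.18 to 0.62), and it was 0.015 without scramble replicate 2 and 0.34 without scramble replicate 3. The ratio of *TFRC* to *SLC11A2* RPKM within a library was 3.77 to 4.87 in scramble and 2.52 to 3.35 in *SNHG15* siRNA cells. The ratios did not overlap, though the levels of each gene did, and neither gene passed the threshold over all genes. How often such ratios separate for other gene pairs was not computed, so nothing is read from this or the other ratios given.

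*SLC40A1*, which encodes ferroportin, the iron exporter, had 0 counts in all 6 libraries. A count of 0 allows a level of up to 0.137 CPM over the scramble libraries together and 0.132 CPM over the *SNHG15* siRNA libraries together, for counting error only. None of its 75-base windows occurs elsewhere in GRCh37.

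*BACH1*, the heme-sensing repressor of *HMOX1*, stood at 10.7, 6.17 and 9.07 CPM in scramble and at 6.38, 9.64 and 11.3 CPM in *SNHG15* siRNA cells. The groups overlapped fully. Its log2 difference was 0.10 (SE 0.26) with a 95% interval of -0.46 to 0.66, the widest among the tested members, and its counts ran from 30 to 96 per library. Leaving out a library moved it between -0.13 (without scramble replicate 2) and 0.33 (without scramble replicate 1). There were 108 to 171 *HMOX1* RPKM per *BACH1* RPKM in scramble cells and 195 to 358 in *SNHG15* siRNA cells.

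**Figure D4:**
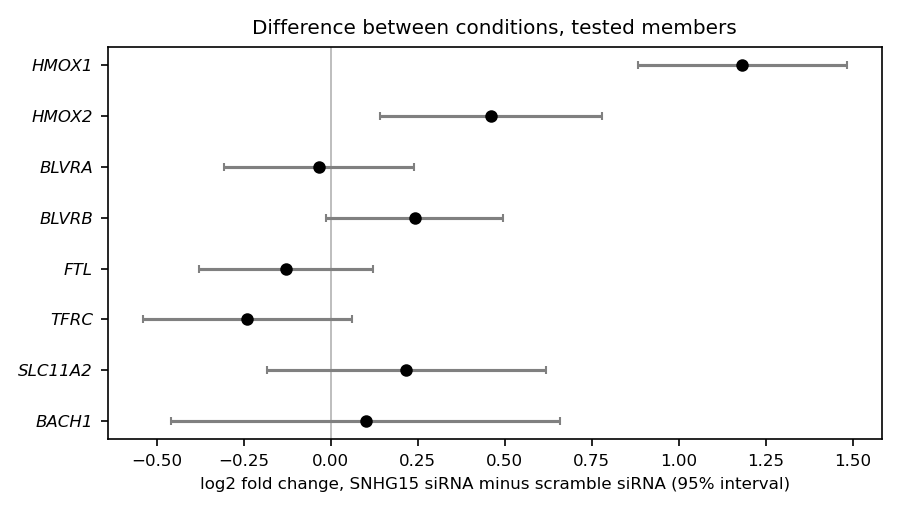
Log2 fold change of the 8 tested members, *SNHG15* siRNA minus scramble siRNA, with 95% intervals from the edgeR fit. Only *HMOX1* and *HMOX2* have intervals that lie wholly above 0 here, and *BLVRB* reaches just below it.

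The rest of the pathway was read from 7 lists that hold 92 further genes. Of these, 72 had enough counts, 1 rose and 0 fell at an adjusted p of 0.05, where 5.36% of all tested genes passed. At an unadjusted p under 0.05 there were 14 (19.4%), 9 above and 5 below 0, a share no higher than the 22.5% (2820) of all tested genes. The lists had 33 tested genes above 0 and 39 below, and a median log2 difference of -0.03 beside 0.0005 over all tested genes. The 20 genes not tested included *NCOA4*, the receptor that delivers ferritin to autophagosomes, which had 0 counts in every library, as did 6 others of the lists. *NCOA4* is used by most cells, so a 0 in this table, that of *SLC40A1* included, is given as listed and not as absence of the mRNA.

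The gene that rose was *SQSTM1*, which encodes the autophagy receptor p62, is bound by NRF2 and in turn binds KEAP1. It stood at 27.3, 28.4 and 27.5 CPM in scramble and at 50.5, 49.9 and 43.8 CPM in *SNHG15* siRNA cells, with wide separation. Its log2 difference was 0.79 (SE 0.14, edgeR adjusted p = 0.0074). Of the 8 tested genes of its list, other genes bound by NRF2 or BACH1, 7 did not pass, and the median log2 difference of that list was 0.05. They included *NQO1*, a quinone reductase, at 135 ± 5.88 and 140.5 ± 9.15 CPM (0.06, adjusted p = 0.79). *TXNRD1*, thioredoxin reductase, was at 592 ± 49.4 and 486 ± 71.6 CPM (-0.28, adjusted p = 0.23).

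The partners and turnover factors of BACH1 and NRF2 had 10 tested genes and 0 calls, with a median log2 difference of -0.11. Of the 10, 4 were above 0 and 6 below. *MAFG*, a small MAF partner of both, was at 96.3 ± 26.3 CPM in scramble and 125.5 ± 16.6 CPM in *SNHG15* siRNA cells (0.37, adjusted p = 0.24). *MAFF*, the other small MAF tested and named after its values were seen, went the other way (-0.44, edgeR adjusted p = 0.20). Also named after their values were seen, *NFE2L2*, which encodes NRF2, was at -0.32 and *KEAP1* at -0.22 (edgeR adjusted p = 0.38 and 0.31). *RBCK1*, also named HOIL-1, a ubiquitin ligase, was at 286 ± 26.1 and 246 ± 20.4 CPM (-0.22, adjusted p = 0.32).

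Heme transport had 7 tested genes, 0 calls and a median log2 difference of 0.39, and the siRNA libraries were all above the scramble libraries for 4 of them, as for 14.7% of all tested genes. These 4 are named after their values were seen. The heme exporter *FLVCR1* was at 32.8 ± 5.76 and 42.8 ± 2.10 CPM (0.39, adjusted p = 0.16), and its relative *FLVCR2* at 2.34 ± 0.201 and 3.87 ± 0.653 CPM (0.72, adjusted p = 0.14). The lysosomal heme carrier *SLC48A1* was at 35.0 ± 5.49 and 46.7 ± 10.1 CPM (0.43, adjusted p = 0.18). *SLC46A1*, which carries folate and heme, was at 9.30 ± 0.214 and 12.5 ± 1.55 CPM (0.42, adjusted p = 0.19). The most abundant genes of the list, the heme-binding *PGRMC1* and *PGRMC2*, both had a log2 difference of -0.12, with adjusted p = 0.67 and 0.60.

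Heme synthesis had 8 tested genes, 0 calls and a median log2 difference of 0.03. *ALAS1*, the enzyme of the first and rate-limiting step, was at 172 ± 7.5 and 180.5 ± 5.22 CPM (0.07, adjusted p = 0.76). *UROD*, a later enzyme of the route, was at 297 ± 33.2 and 276 ± 13.8 CPM (-0.11, adjusted p = 0.66). *UROS*, an enzyme of the middle of the route and named after its values were seen, was at 50.3 ± 2.8 and 69.5 ± 11.8 CPM (0.47, adjusted p = 0.081), with all siRNA libraries above.

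Iron transport and storage besides the members had 8 tested genes of 16, 0 calls and a median of -0.09. The groups did not overlap for 4 of the 8, beside 28.8% of all tested genes. The siRNA libraries were all below for *PCBP1*, *PCBP2* and *SLC39A14*. They were all above for *MCOLN1*, named after its values were seen (0.27, edgeR adjusted p = 0.32). The iron chaperones that load ferritin, *PCBP1* and *PCBP2*, were the most abundant. *PCBP1* was at 575, 645 and 639 CPM in scramble and at 330, 522 and 546 CPM in *SNHG15* siRNA cells (-0.41, adjusted p = 0.17), with replicate 1 the low library. *PCBP2* had a log2 difference of -0.19 (adjusted p = 0.40). Without *SNHG15* siRNA replicate 1 the differences were -0.21 for *PCBP1* and -0.09 for *PCBP2*. *SLC39A14*, the zinc and iron importer ZIP14, named after its values were seen, was at 171 ± 24.1 and 121 ± 24.4 CPM (-0.51, adjusted p = 0.085).

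The iron regulatory proteins that bind the hairpins printed above are *ACO1* and *IREB2*. *ACO1* was at 108 ± 4.26 and 96.6 ± 7.20 CPM (-0.16, adjusted p = 0.46), and *IREB2* at 43.5 ± 6.33 and 38.3 ± 5.23 CPM (-0.20, adjusted p = 0.49). Their list, iron sensing and hepcidin control, had 5 tested genes, 0 calls and a median of -0.16.

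Mitochondrial iron and iron-sulfur cluster assembly was the longest list, with 26 tested genes, 0 calls and a median of -0.11. Of these, 18 were below 0 and 8 above, within a narrow range of -0.32 to 0.29. *HSPA9*, the mitochondrial chaperone of cluster transfer, was at 537 ± 73.9 and 441 ± 108 CPM (-0.29, adjusted p = 0.35), and its difference was -0.11 without *SNHG15* siRNA replicate 1 and -0.44 without replicate 3. *CIAO2B*, of the cytosolic assembly complex, was at 228.5 ± 14.0 and 241.5 ± 19.1 CPM (0.08, adjusted p = 0.74).

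**Figure D5:**
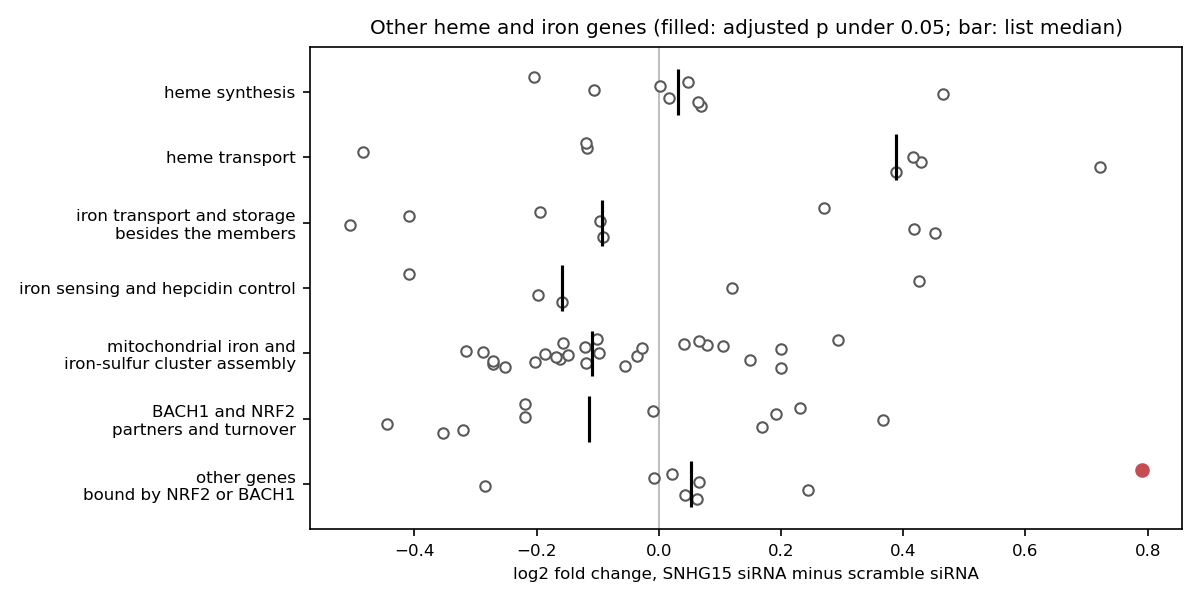
Log2 fold change of the 72 tested genes of the 7 lists, *SNHG15* siRNA minus scramble siRNA. Each circle is a gene, the filled one passed an adjusted p of 0.05 (*SQSTM1*, 0.79), and the vertical bars are list medians, from -0.16 for iron sensing to 0.39 for heme transport.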

How the data were processed

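The deposited table holds raw counts of reads per Ensembl gene identifier for 6 libraries, made by the authors from stranded, 75-base paired-end polyadenylated RNA libraries. The submitters' processing notes name STAR, featureCounts and hg19, whereas the study's methods name bowtie2 with hg19. The annotation and strand setting of the counting are not given in the sources used here. The protocols also differ in the RNA extraction they name.

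The members and gene lists were chosen with earlier results of these data known. Symbols came from GENCODE v44 lifted to GRCh37, which held 55665 of the 63677 identifiers. edgeR 4.0.16 in R 4.3.3 was run on all 6 libraries (filterByExpr, TMM factors, quasi-likelihood test, Benjamini-Hochberg over 12507 genes), after it was tested on simulated data. CPM values carry the TMM factors. The fold change intervals are at 95%. Beside the members, the text names *SNHG15*, the genes of each list that passed, the 2 most abundant of each list, the leading ferritin pseudogenes and *BEST1*, unless it says otherwise. Alternatives were DESeq2 1.42.0, other factors, other filters, a replicate block, each library left out, and ferritin summed with its pseudogenes. Windows, motifs and hairpins were read from GRCh37. The summed level of the erythroid markers is not reported here. Depth ran from 3446922 to 10256710 counts per library.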

Additional observations from a re-analysis of the deposited data

How the results depend on the processing

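Of the members, 1 was called, *HMOX1*, under each of the 12 alternatives, and its log2 difference ran from 1.06 to 1.26. The count of all genes called was 671 with all libraries and the filter, 1312 with no filter on low counts, and between 139 and 812 with each library left out: 199, 139 and 266 without scramble replicates 1, 2 and 3, and 812, 356 and 665 without *SNHG15* siRNA replicates 1, 2 and 3. The genes called in the 7 lists were 1 (*SQSTM1*) in all but 3 settings. They were 2 with DESeq2 (with *SLC39A14*), 3 with no filter (with *SLC39A14* and *PCBP1*) and, over the fits without 1 library, 1 to 2 (with *UROS* without *SNHG15* siRNA replicate 3). *PGRMC1*, at a log2 difference of -0.12, ran from -0.20 to 0.023 with each library left out, the latter without *SNHG15* siRNA replicate 1. A count of moves covered 23 genes, the tested members and the list genes that passed or were the most abundant of their list. Of these 23, 18 moved by over 1.5 times or changed sign without 1 library, and 3 changed sign (*BLVRA*, *BACH1* and *PGRMC1*). Other genes named in the text, such as those named after their values were seen, were not part of this count. *BLVRA* was also at 0.0033 with upper-quartile factors. The cause of these changes was not tested. No clear pairing by replicate number was seen. Across genes, deviations from the group means correlated at -0.07, 0.17 and -0.05 between libraries of the same number. Between libraries of different numbers the correlations ran from -0.18 to 0.16. With a replicate block 543 genes, 1 member and 1 gene of the lists were called. The 3446922 counts of scramble replicate 3 limit low genes most, such as *BACH1* with 30 counts there. *FTH1* and *SLC40A1* had too few counts in every library to compare, and the cause was not tested.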
